A study of Mus musculus with 26 samples.

Results

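The RNA levels of 10 genes that report on bone morphogenetic protein (BMP) signalling were followed through mouse cells and tissues labelled as wild-type (WT) or as knockout (KO) for a de novo DNA methyltransferase. They were 7 genes that BMP signalling is known to induce (*Id1*, *Id2*, *Id3*, *Id4*, *Smad6*, *Smad7* and *Atoh8*), the ligand *Bmp4*, and the secreted antagonists *Grem1* and *Nog*. The genes were chosen by symbol, and each of the 10 was found among the 52609 gene rows of the expression table. RNA-seq was analysed in 10 libraries with 1 library per condition, so no p-value was calculated and no difference below has a replicate check.

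2i-MEFs are mouse embryonic fibroblasts (MEFs) that descend from ES cells kept in 2i medium. The female ES cells had an F1 background of 129X1/SvJ and MSM/Ms, *Dnmt3a* or *Dnmt3b* was disrupted in them with CRISPR/Cas9, and they were injected into host blastocysts. Fibroblasts were isolated at E14.5, host cells were removed by drug selection and sorting for GFP, and 1 *Dnmt3a* KO and 1 *Dnmt3b* KO library at passage 1 were used. The other MEFs came directly from male E14.5 embryos labelled C57BL6, bred from mice heterozygous for the Dnmt3a tm1Enl allele, and were labelled *Dnmt3a* WT or *Dnmt3a* KO. At passage 1 they received either DMSO or GSK126, an inhibitor of the histone methyltransferase EZH2, at 10 µM for 2 days. Heart and liver were from male E14.5 embryos of the same cross, with 1 library labelled WT and 1 labelled *Dnmt3a* KO each, and the labels give the heart and liver labelled KO the same sample number, as they do the WT heart and the WT liver. In these whole tissues, fewer cells of a type and less RNA per cell cannot be told apart.

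BMP ligands bind receptor kinases at the cell surface, which phosphorylate SMAD1, SMAD5 and SMAD9. Together with SMAD4 these enter the nucleus and switch on a small set of direct targets, of which the *Id* genes and the inhibitory *Smad* genes are the best known. ID proteins bind E proteins and keep them from DNA, SMAD6 and SMAD7 damp the pathway that induced them, and gremlin and noggin capture BMP ligands outside the cell. In the embryo the pathway is used to pattern the heart and the skeleton, and in the liver it controls iron uptake through hepcidin.

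Expression is given as FPKM, in which the fragments of a gene are divided by its transcript length in kilobases and by the size of the library. Depth recovered from the steps in low FPKM values ranged from 9155626 to 26173986 reads per library. A gene was counted as higher or lower where FPKM + 1 differed at least 2-fold, a log2 ratio of 1. This rule has no error rate, so each count is set beside the share of genes passing it in the same direction, out of those that reached 1 FPKM in either library. Ranges after a fold in FPKM are exact 95% intervals for counting error only, computed with the reads expected on the shortest annotated transcript, which gives the widest interval. *Dnmt3a* itself was at 4.21 FPKM in *Dnmt3a* KO and 23.9 in *Dnmt3b* KO 2i-MEFs, and at 53.5 in WT and 12.7 in labelled KO liver. It was at 19.3 to 26.1 FPKM in WT and 84.5 to 85.7 in the MEFs labelled *Dnmt3a* KO, and at 55.0 in WT and 125 in labelled KO heart, which goes against the labels. *Dnmt3b* was at 0.817 FPKM in *Dnmt3b* KO and 1.81 in *Dnmt3a* KO 2i-MEFs and at 0.400 and 0.413 in WT MEFs, so that its level does not show its loss in the *Dnmt3b* KO library. These values cover whole genes and so do not show whether a part is deleted. The MEFs, hearts and livers labelled KO are therefore named as the libraries labelled KO, and whether they lack DNMT3A is not shown by these values.

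RefSeq windows of 250 bases before to 50 bases after a transcription start (GRCm38.p6) were held for 7 of the 10 genes, namely *Id2*, *Id3*, *Id4*, *Smad6*, *Atoh8*, *Bmp4* and *Grem1*. They were searched on both strands for GGCGCC, a GC-rich element bound by SMADs, for GTCTAGAC, the palindromic SMAD element, and for the E-box CANNTG, which E proteins bind. GGCGCC was found in 3 of the 7 windows (42.9%), against 11.9% of 32851 windows and 30.9% of the 9690 windows with a GC content of at least 60%. All 7 windows had a GC content between 60% and 73.3%, against a median of 52.7% over all windows. GTCTAGAC was found in 1 window, that of *Smad6*, against 0.213% of all windows, and an E-box in 4 of 7 (57.1%) against 72.3%. The matches are descriptions of the letters and not measured binding sites, and no match overlaps a match of another motif. The 4 windows that hold a SMAD element are shown from 250 bases before to 10 bases after the start, 5′ to 3′ on the strand of the gene, with GGCGCC and GTCTAGAC in capitals. They are chr12:25096083-25096342 on the minus strand for *Id2*, chr13:48260866-48261125 on the plus strand for *Id4*, chr2:113758639-113758898 on the minus strand for *Grem1* and chr9:64022050-64022309 on the minus strand for *Smad6*.
Id2: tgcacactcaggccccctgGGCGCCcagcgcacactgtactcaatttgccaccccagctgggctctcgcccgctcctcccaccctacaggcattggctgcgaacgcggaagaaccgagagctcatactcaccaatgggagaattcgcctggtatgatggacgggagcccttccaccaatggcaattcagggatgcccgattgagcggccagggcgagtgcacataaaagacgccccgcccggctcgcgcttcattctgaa
Id4: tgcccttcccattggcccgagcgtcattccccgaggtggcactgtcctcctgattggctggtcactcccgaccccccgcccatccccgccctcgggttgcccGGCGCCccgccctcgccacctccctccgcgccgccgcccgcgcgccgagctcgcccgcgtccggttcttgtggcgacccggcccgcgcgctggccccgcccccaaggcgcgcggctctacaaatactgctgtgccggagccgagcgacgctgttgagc
Grem1: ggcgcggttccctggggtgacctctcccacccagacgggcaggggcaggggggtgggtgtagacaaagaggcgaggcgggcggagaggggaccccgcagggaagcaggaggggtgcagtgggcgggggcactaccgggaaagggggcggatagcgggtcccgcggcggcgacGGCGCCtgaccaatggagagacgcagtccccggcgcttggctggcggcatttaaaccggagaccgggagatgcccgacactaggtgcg
Smad6: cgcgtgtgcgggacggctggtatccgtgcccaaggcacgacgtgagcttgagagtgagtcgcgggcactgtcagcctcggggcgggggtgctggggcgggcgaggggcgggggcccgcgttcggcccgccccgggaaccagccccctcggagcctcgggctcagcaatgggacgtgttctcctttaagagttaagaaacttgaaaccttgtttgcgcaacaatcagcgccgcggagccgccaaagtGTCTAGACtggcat
With positions counted from the start, the first base of GGCGCC lay at -231 in *Id2*, -148 in *Id4* and -78 in *Grem1*, and GTCTAGAC spanned the start of *Smad6*, from -4 to 4.

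Among the *Id* genes, *Id1* had the widest gap between MEFs from embryos and 2i-MEFs. *Id1* (ENSMUSG00000042745.9, chr2:152736251-152737410, plus strand, mm10) was at 49.4 FPKM in *Dnmt3a* KO 2i-MEFs and 30.0 in *Dnmt3b* KO 2i-MEFs. In the MEFs taken directly from embryos the WT libraries were at 255 with DMSO and 274 with GSK126, and the libraries labelled KO at 334 with DMSO and 246 with GSK126. The hearts were at 54.1 (WT) and 57.3 (labelled KO) and the livers at 34.2 (WT) and 32.5 (labelled KO). The 4 MEF libraries thus stood above all others, and the lowest of them was 4.98-fold above the higher 2i-MEF library, and *Dnmt3b* KO 2i-MEFs were the lowest of the 10 libraries.

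*Id3*, a close relative of *Id1* in the same family, did not share this gap. *Id3* (ENSMUSG00000007872.3, chr4:136143497-136145755, plus strand) was at 403 FPKM in *Dnmt3a* KO and 234 in *Dnmt3b* KO 2i-MEFs. It was at 251, 244, 416 and 226 in the MEFs, in the order given for *Id1*, at 103 and 93.3 in WT and labelled KO heart, and at 36.3 and 26.7 in WT and labelled KO liver. The 2i-MEF values lay within the range of the MEFs, and the 6 fibroblast libraries were all above the tissues. The ratio of *Id3* to *Id1* was 7.80 to 8.16 in 2i-MEFs and 0.889 to 1.25 in MEFs. Of the summed FPKM of the 4 *Id* genes, *Id3* made up 80.1% and 82.6% in 2i-MEFs and 41.2% to 48.9% in MEFs.

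*Id2* and *Id4* were lower than *Id1* and *Id3* in fibroblasts. *Id2* (ENSMUSG00000020644.9, chr12:25093799-25097140, minus strand), known from lymphoid and epithelial development, was at 46.9 and 15.8 FPKM in *Dnmt3a* KO and *Dnmt3b* KO 2i-MEFs. It was at 61.2, 67.8, 94.0 and 56.1 in MEFs in the same order, 53.9 and 53.8 in WT and labelled KO heart, and 44.0 and 41.6 in WT and labelled KO liver. *Dnmt3b* KO 2i-MEFs were the lowest of the 10 libraries, and the other 9 lay between 41.6 and 94.0. In liver *Id2* had the largest share of the *Id* sum, 38.4% in WT and 41.2% in labelled KO, where *Id1* and *Id3* had 26.4% to 32.2%.

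*Id4* (ENSMUSG00000021379.2, chr13:48261228-48266026, plus strand), best known from the nervous system, was the lowest *Id* gene in every library. It was at 4.11 and 3.73 FPKM in *Dnmt3a* KO and *Dnmt3b* KO 2i-MEFs, at 5.26, 6.16, 6.84 and 5.50 in MEFs, at 1.05 and 0.781 in WT and labelled KO heart and at 0.178 and 0.160 in WT and labelled KO liver. It made up at most 1.31% of the *Id* sum.

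**Figure D1:**
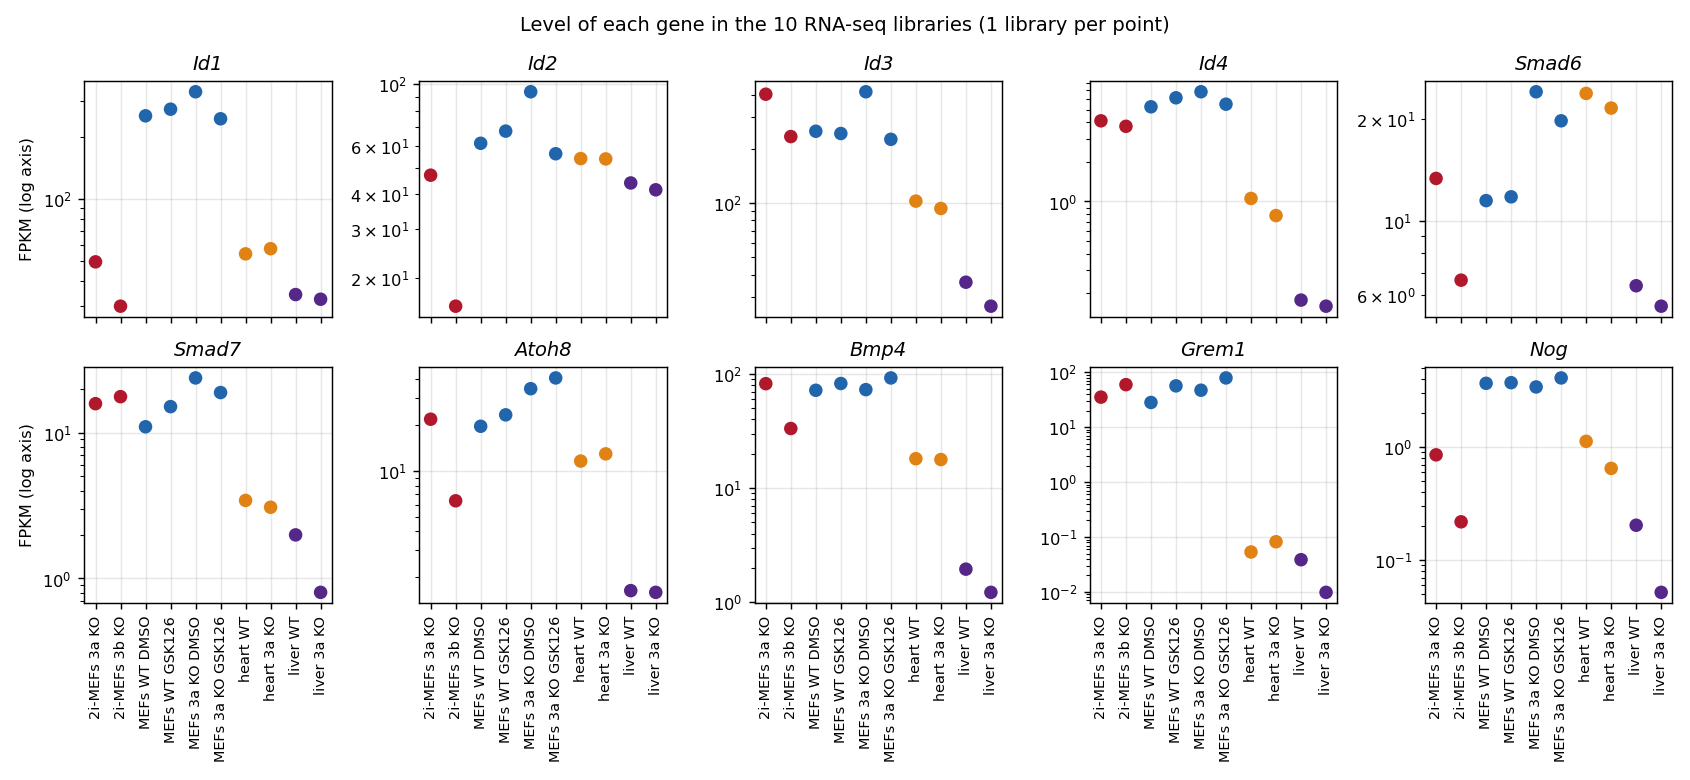
FPKM (log axis, with its own range in each panel) of the 10 genes in the 10 libraries, 1 point per library and no error bars, with 2i-MEFs in red, MEFs from embryos in blue, heart in orange and liver in purple. *Id1* stood at 246 to 334 FPKM in MEFs and at 30.0 to 49.4 in 2i-MEFs, *Id3* overlapped between them, and *Grem1* separated all fibroblasts from both tissues.

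The inhibitory *Smad* genes differed from each other in the tissues. *Smad6* (ENSMUSG00000036867.7, chr9:63953076-64022059, minus strand), which acts mainly against BMP receptors, was at 13.3 and 6.65 FPKM in *Dnmt3a* KO and *Dnmt3b* KO 2i-MEFs. It was at 11.5, 11.8, 24.1 and 19.8 in MEFs, at 23.9 and 21.6 in WT and labelled KO heart, and at 6.40 and 5.57 in liver. *Smad7* (ENSMUSG00000025880.11, chr18:75367529-75395935, plus strand), which acts against both BMP and TGF-beta receptors, was at 15.8 and 17.6 in 2i-MEFs, at 11.0, 15.0, 23.7 and 18.8 in MEFs, at 3.43 and 3.08 in heart and at 1.99 and 0.804 in liver. *Smad6* in heart thus reached the level of the labelled KO MEFs, whereas *Smad7* was lower in every tissue library than in every fibroblast library. The ratio of *Smad6* to *Smad7* was 6.97 and 7.02 in WT and labelled KO heart, 3.22 and 6.92 in WT and labelled KO liver and 0.378 to 1.05 in the 6 fibroblast libraries.

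*Atoh8*, *Bmp4* and the antagonists were highest in fibroblast libraries. *Atoh8* (ENSMUSG00000037621.8, chr6:72206177-72235577, minus strand), a basic helix-loop-helix factor, was at 21.9 and 6.35 FPKM in *Dnmt3a* KO and *Dnmt3b* KO 2i-MEFs, at 19.7, 23.4, 34.8 and 40.9 in MEFs, at 11.6 and 12.9 in heart and at 1.63 and 1.58 in liver. *Bmp4* (ENSMUSG00000021835.14, chr14:46383520-46390669, minus strand), the ligand, was at 82.4 and 33.3 in 2i-MEFs, at 72.1, 82.7, 73.1 and 92.6 in MEFs, at 18.1 and 17.8 in heart and at 1.95 and 1.22 in liver. Again *Dnmt3b* KO 2i-MEFs had the lowest value of the fibroblasts for either gene, and liver was the lowest of all.

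*Grem1* (ENSMUSG00000074934.3, chr2:113746164-113758646, minus strand), the antagonist gremlin, was at 35.2 and 59.4 FPKM in *Dnmt3a* KO and *Dnmt3b* KO 2i-MEFs and at 28.1, 56.5, 47.0 and 78.7 in MEFs. In heart it was at 0.0534 and 0.0821 (4 and 5 reads) and in liver at 0.0386 and 0.00984 (4 and 1 reads). *Nog* (ENSMUSG00000048616.4, chr11:89300638-89302332, minus strand), the antagonist noggin, was at 0.857 and 0.219 in 2i-MEFs (14 and 3 reads), at 3.68, 3.73, 3.42 and 4.11 in MEFs, at 1.13 and 0.650 in heart and at 0.204 and 0.0520 in liver. *Grem1* was thus near the limit of detection in both tissues, and *Nog* was lower than *Grem1* in all fibroblasts.

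Gaps between kinds of sample were counted over all genes as well. *Id1* and *Nog* (2 of 10) were at least 2-fold higher in FPKM + 1 in the lowest MEF library than in the higher 2i-MEF library, as were 2.72% of 15051 genes. *Id3*, *Id4*, *Smad7* and *Grem1* (4 of 10) were at least 2-fold higher in the lowest fibroblast library than in the highest heart or liver library, as were 4.29% of 16896 genes. No member passed in the opposite direction, against 1.73% and 2.54% of genes. 2i-MEFs and MEFs differ in strain, sex, derivation, drug selection and sorting. They also differ in treatment, since all MEFs received DMSO or GSK126, which is not stated for the 2i-MEFs. Genotype differs as well, since both 2i-MEF libraries are KO and the MEFs include WT. These differences cannot be told apart. The 6 fibroblast markers summed to 5884 to 17342 FPKM in the fibroblast libraries, whereas the cardiomyocyte, hepatocyte and erythroid markers summed to at most 9.19 FPKM there. The 5 cardiomyocyte markers summed to 18550 and 20454 FPKM in the hearts, and the 5 hepatocyte markers to 10796 and 17823 in the livers. The 5 erythroid markers summed to 22560 FPKM in WT and 15846 in labelled KO heart, and to 83945 and 103314 in the livers.

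Which genes were closest in profile was asked for *Id1*, *Smad6*, *Bmp4* and *Grem1*, among the 10173 genes that averaged 5 FPKM or more, by the root mean square difference of log2(FPKM + 1) around each gene's mean over the 10 libraries. The nearest to *Id1* were *Slc27a3* (0.25), *Gm28592* (0.30) and *Tiparp* (0.40), while *Id2* and *Id3* were at 1.002 and 1.17. The nearest to *Smad6* were *Plagl1* (0.17), *Cd151* (0.23) and *Kank1* (0.25), with *Smad7* at 1.23. *Bmp4* was nearest to *Ccdc80* (0.29), *Fat1* (0.31) and *Sulf1* (0.32), and *Grem1* to *Cdkn2b* (0.28), *Cyp1b1* (0.40) and *Thbs1* (0.55). A profile like that of *Smad6*, which varied little, was common, since 58.0% of genes lay within a difference of 1, against 5.73% for *Id1*, 5.59% for *Bmp4* and 0.747% for *Grem1*.

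The first comparison set *Dnmt3a* KO against *Dnmt3b* KO 2i-MEFs. Most of the BMP targets and the ligand had higher values with *Dnmt3a* KO than with *Dnmt3b* KO, whereas *Grem1* had a lower one. *Id2*, *Atoh8* and *Bmp4* passed the 2-fold rule (3 of 10), against 5.52% of 13605 genes, and no member was lower by it, against 3.49%. *Id2* was 2.98-fold higher (2.40 to 3.71), *Atoh8* 3.45-fold (2.25 to 5.47) and *Bmp4* 2.47-fold (1.45 to 4.41). Of the other targets, *Id1* was 1.64-fold higher (1.39 to 1.96) and *Id3* 1.72-fold (1.43 to 2.08), and *Smad6* was 2.01-fold higher with an interval that includes 1 on the shortest transcript (0.591 to 6.78) and not on the longest (1.67 to 2.41). *Id4* (1.10-fold, 0.867 to 1.40) was not separated by counting error, and *Smad7* was 0.896-fold, with an interval that includes 1 on the shortest transcript (0.534 to 1.49) and not on the longest (0.804 to 0.997). The median log2 ratio of FPKM + 1 was 0.78 over the 7 targets and 0.03 over all genes.

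The antagonists went in opposite directions in 2i-MEFs. *Grem1* was 1.69-fold lower with *Dnmt3a* KO (1.58 to 1.80), from 1519 against 2149 reads. *Nog* was 3.92-fold higher, but on 14 against 3 reads (1.09 to 21.3). The 6 endothelial markers summed to 6.24 FPKM with *Dnmt3a* KO and 1.18 with *Dnmt3b* KO, with *Esam* at 4.78 against 0.448 and *Tie1* at 0 in both, and the 5 skeletal muscle markers to 6.03 and 22.5 FPKM, and their part in these differences was not tested. WT 2i-MEFs were not analysed, so that a higher value in the one KO and a lower value in the other cannot be told apart.

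Other genes of the pathway were taken from lists of 10 ligands, 10 receptors, 4 transducing *Smad* genes, 10 further antagonists and 8 further targets. In 2i-MEFs 1 of 10 ligands, 2 of 8 further targets and 1 of 10 further antagonists were higher by the 2-fold rule with *Dnmt3a* KO, and 1 of 10 receptors and 1 of 10 further antagonists were lower, against 5.52% of all genes higher and 3.49% lower. The ligand was *Bmp3* (2.21 against 0.386 FPKM), the receptor *Bmpr1b* (2.40 against 6.32), and the targets were the homeobox genes *Msx1* (4.54 against 0.691) and *Dlx5* (3.67 against 0.874). The higher antagonist was *Chrdl1*, a chordin-like protein (6.49 against 0.734), and the lower one *Bmper*, which can block or aid BMPs (13.9 against 30.8). None of the 4 transducing *Smad* genes passed the rule.

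In MEFs with DMSO, where labelled KO and WT were compared without the inhibitor, all 7 targets had higher values in the library labelled KO. *Smad6* and *Smad7* passed the 2-fold rule (2 of 10), against 4.24% of 13695 genes, and no member was lower by it, against 2.02%. *Smad6* was 2.11-fold higher (1.17 to 3.97) and *Smad7* 2.16-fold (1.48 to 3.16), with log2 ratios of FPKM + 1 of 1.01 and 1.04 that lie just past the rule. Among the others, *Atoh8* was 1.77-fold higher (1.48 to 2.14), *Id3* 1.66-fold (1.47 to 1.88), *Id2* 1.54-fold (1.42 to 1.67), *Id1* 1.31-fold (1.26 to 1.37) and *Id4* 1.30-fold (1.14 to 1.49). The median log2 ratio of FPKM + 1 of the targets was 0.73, against 0.04 over all genes. *Bmp4* was 1.01-fold of WT (0.759 to 1.37) and *Nog* 0.928-fold (0.710 to 1.22), whereas *Grem1* was 1.67-fold higher (1.59 to 1.76).

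With GSK126 on both sides, the same comparison gave 0 members past the rule, against 2.88% of 13581 genes higher and 2.95% lower. *Atoh8* was still 1.75-fold higher in the library labelled KO (1.48 to 2.08) and *Grem1* 1.39-fold (1.34 to 1.45), and *Smad6* was 1.68-fold higher (0.886 to 3.08 on the shortest and 1.53 to 1.86 on the longest transcript). The 4 *Id* genes were on the other side of WT. *Id1* was 1.11-fold lower (1.07 to 1.16) and *Id2* 1.21-fold lower (1.10 to 1.32), whereas *Id4* (1.12-fold lower, 0.976 to 1.28) and, on the shortest transcript, *Id3* (1.08-fold lower, 0.934 to 1.25) were not separated by counting error. *Smad7* and *Bmp4* were 1.25-fold (0.879 to 1.79) and 1.12-fold (0.850 to 1.47) of WT. The fibroblast markers summed to 8894 FPKM in labelled KO and 11596 in WT with DMSO and to 5884 and 8614 with GSK126, and the skeletal muscle markers to 47.8 and 18.6 with DMSO and to 27.8 and 24.7 with GSK126, and their part in the results was not tested.

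**Figure D2:**
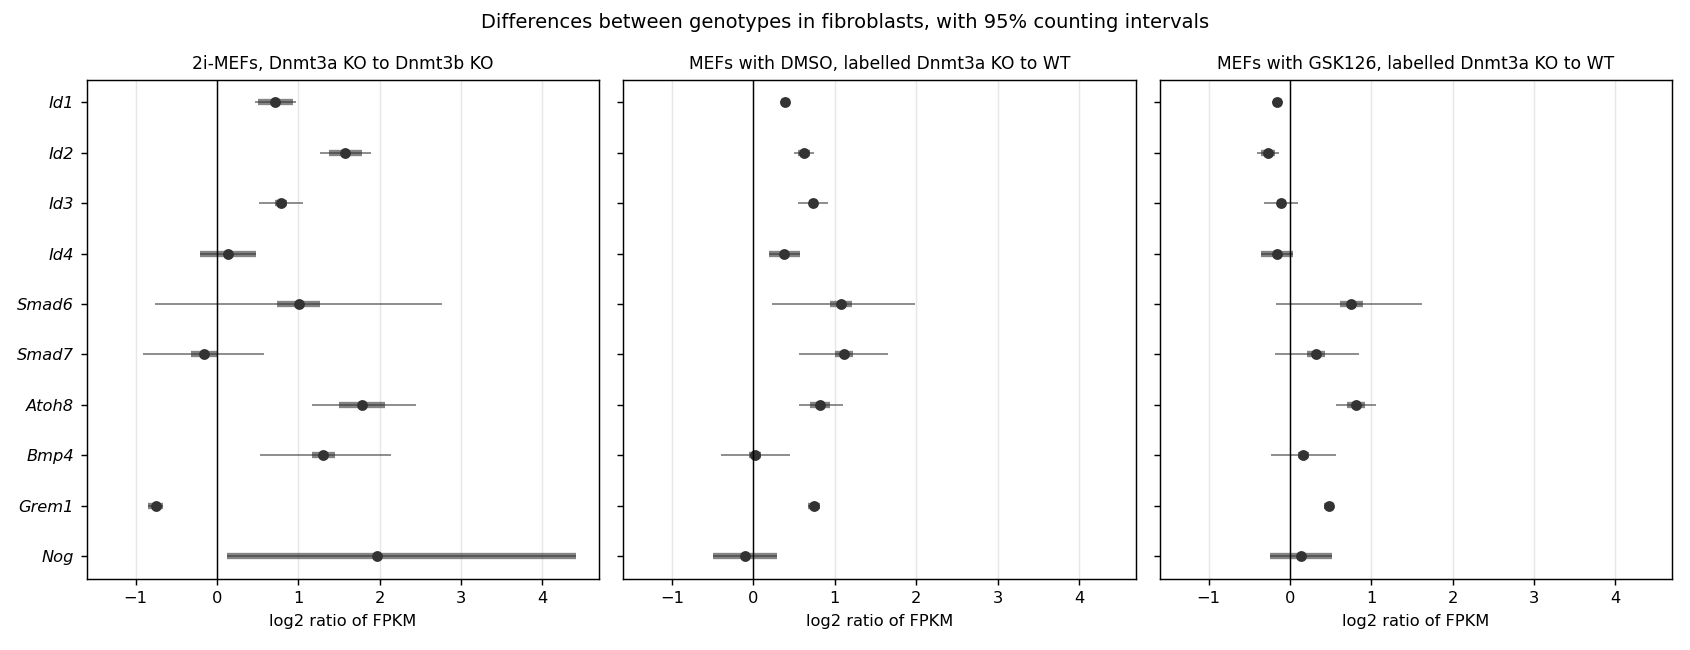
Log2 ratio of FPKM between genotypes for each gene in 3 fibroblast comparisons, 1 library per side, with the point at the ratio, the thin line the 95% counting interval on the shortest and the thick line that on the longest transcript. The 7 targets lie to the right of 0 in MEFs with DMSO, where *Smad7* was 2.16-fold higher in the library labelled KO, and the *Id* genes lie to the left of 0 with GSK126.

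The rest of the pathway in MEFs held larger differences than the members. *Eng*, which encodes the co-receptor endoglin, was at 64.8 FPKM in labelled KO and 9.40 in WT with DMSO, and at 87.5 and 14.6 with GSK126. It was the only 1 of 10 receptors past the rule in either treatment. Of all genes, 4.24% were higher and 2.02% lower with DMSO, and 2.88% were higher and 2.95% lower with GSK126. *Eng* is also an endothelial gene. The 6 endothelial markers summed to 4.26 FPKM in labelled KO and 5.56 in WT with DMSO, and to 5.16 and 2.99 with GSK126, with 1 of 6 past the rule as higher and 1 as lower with DMSO, and 1 as higher with GSK126. Of them, *Esam* was at 2.04 against 0.169 FPKM with DMSO and 2.41 against 0 with GSK126. *Cdh5* went the other way, at 0.0514 against 1.90 FPKM with DMSO and 0.0498 against 0.706 with GSK126. *Tek* was at 1.46 against 2.80 FPKM with DMSO and 1.96 against 1.40 with GSK126, and *Tie1* was at 0 in all 4 libraries. The part of these markers in the result was not tested. The ligand *Gdf7* was at 0.326 against 4.60 FPKM with DMSO and 0.541 against 5.15 with GSK126, and the ligand *Gdf5* at 2.43 against 9.65 with DMSO. *Bmp5* (5.16 against 0.454) and *Bmp6* (4.78 against 1.42) were higher in labelled KO with GSK126. Of the antagonists, follistatin (*Fst*) was at 53.7 against 15.1 with DMSO. The target *Msx1* was at 0.832 against 4.17 and at 0.899 against 7.38. It was the only 1 of the 8 further targets past the rule, against 2.02% of all genes lower with DMSO and 2.95% with GSK126. Its direction was opposite to that of *Smad6* and *Smad7*. Of the ligands, 2 of 10 were lower with DMSO, and 2 were higher and 1 lower with GSK126. Of the further antagonists, 1 of 10 was higher and 1 lower with DMSO, and 1 was lower with GSK126.

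*Smad7* also answers to TGF-beta, so TGF-beta targets were listed beside it. *Ltbp2*, a matrix protein, was at 171 FPKM in labelled KO and 63.4 in WT with DMSO, and at 167 and 65.6 with GSK126, past the rule in both treatments. *Tgfbi*, another matrix protein, was at 37.0 against 72.9 with DMSO, which did not pass the rule.

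GSK126 was compared with DMSO within each genotype to ask what EZH2 inhibition does. These 2 comparisons share the 4 MEF libraries with those between genotypes, so their values are not independent of them. In WT no member passed the rule, against 2.17% of 13490 genes higher and 1.59% lower. *Grem1* came closest, at 56.5 against 28.1 FPKM, which is 2.01-fold in FPKM (1.90 to 2.12) and a log2 ratio of 0.98 in FPKM + 1. The 7 targets had log2 ratios of FPKM + 1 from -0.04 (*Id3*) to 0.42 (*Smad7*).

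In the MEFs labelled KO, GSK126 went with lower *Id* values and again with higher *Grem1*. No member passed the rule, against 2.01% of 13654 genes higher and 3.25% lower. *Id3* was 1.84-fold lower (1.63 to 2.08), *Id2* 1.68-fold (1.55 to 1.82), *Id1* 1.35-fold (1.30 to 1.41) and *Id4* 1.24-fold lower (1.10 to 1.41). *Smad6* and *Smad7* were 1.22-fold (0.776 to 2.00) and 1.26-fold lower (0.939 to 1.70), whereas *Atoh8* was 1.18-fold higher (1.02 to 1.35). *Grem1* was 1.67-fold higher (1.61 to 1.74), *Bmp4* 1.27-fold (0.971 to 1.64) and *Nog* 1.20-fold (0.936 to 1.54). The target ratios had a median of -0.32 on the log2 scale of FPKM + 1, against -0.04 over all genes. Outside the members, no gene of the ligand, receptor, transducer, antagonist and further target lists passed the rule with GSK126 in either genotype.

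**Figure D3:**
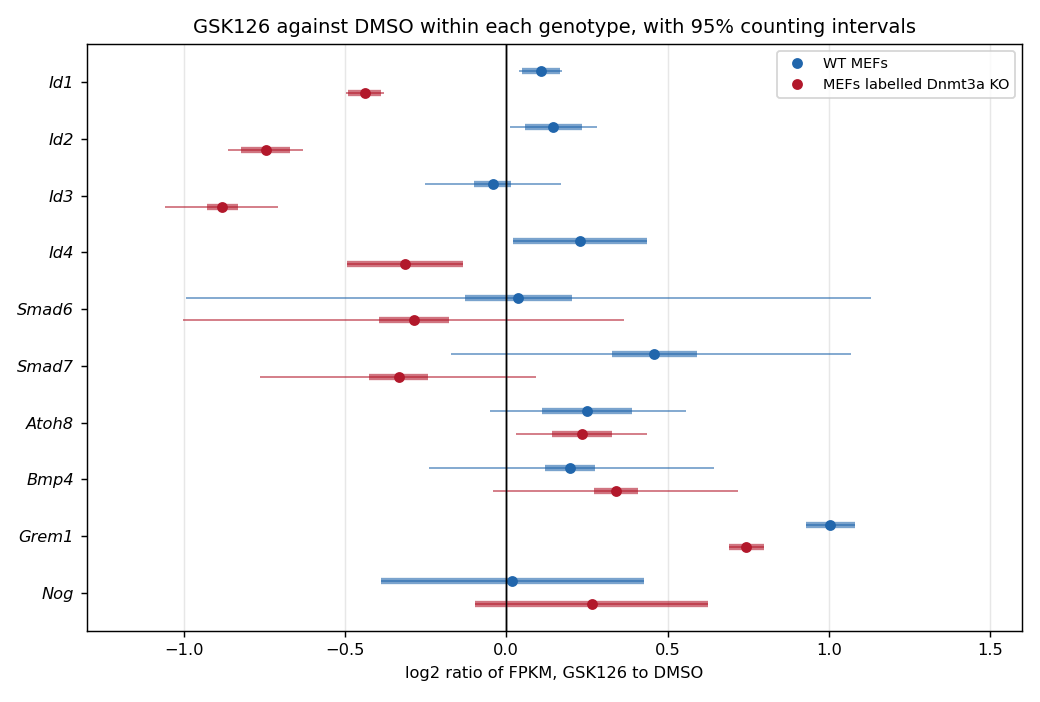
Log2 ratio of FPKM with GSK126 to DMSO for each gene in WT MEFs (blue) and in MEFs labelled *Dnmt3a* KO (red), 1 library per condition, with thin and thick lines for the 95% counting interval on the shortest and longest transcript. *Grem1* lies to the right of 0 in both (2.01-fold and 1.67-fold), and the 4 *Id* genes lie to the left of 0 in the labelled KO.

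**Figure D4:**
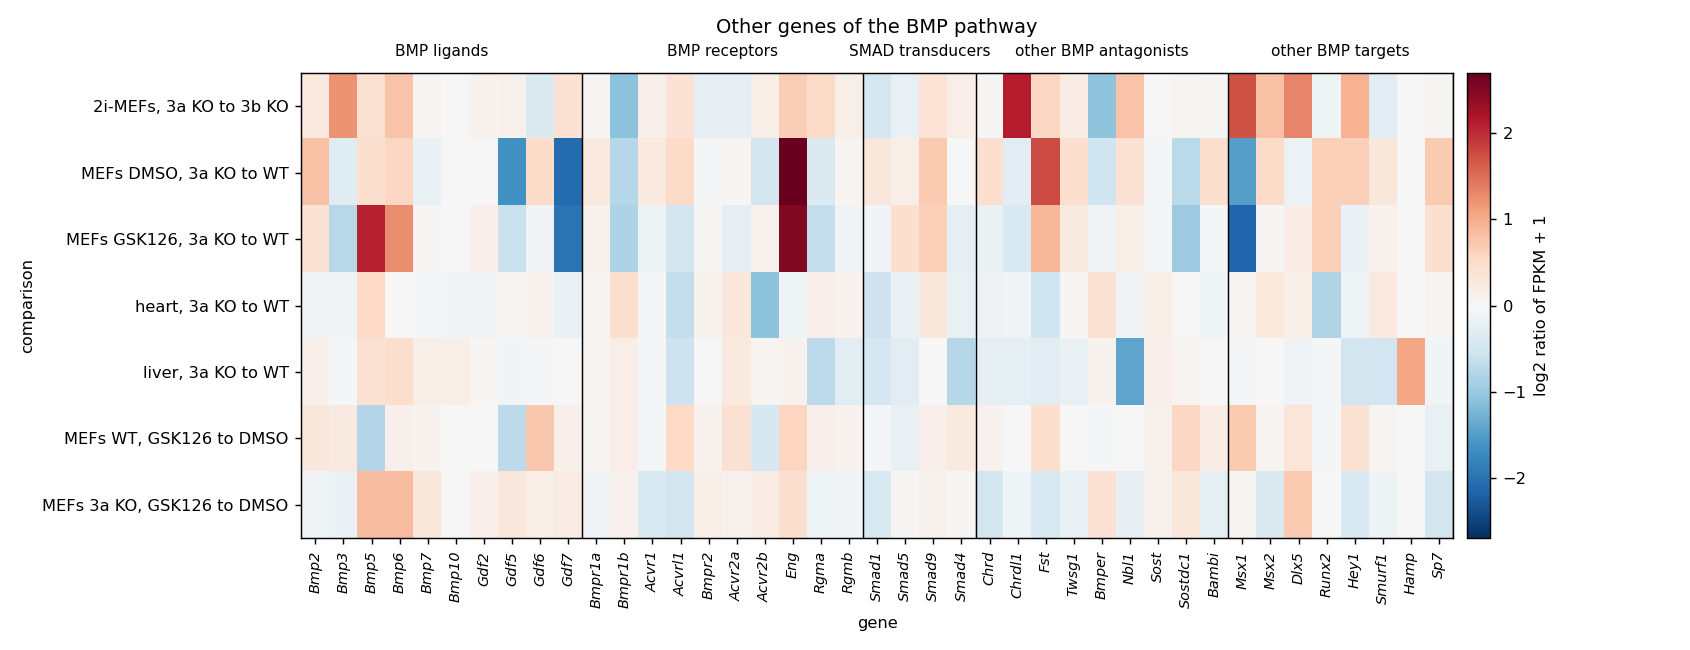
Log2 ratio of FPKM + 1 (colour, red for higher) of other BMP pathway genes (columns, grouped by list) in 7 comparisons (rows), each of 1 library against 1. *Eng* is the darkest red in the MEFs labelled KO (64.8 against 9.40 FPKM with DMSO), *Msx1* and *Gdf7* are blue there, and heart and liver are pale for most genes.

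Heart and liver allow the same comparison of labelled KO with WT in vivo. In heart 0 of 10 members passed the rule, against 2.18% of 13828 genes higher and 1.85% lower. *Id1* was 1.06-fold of WT (0.953 to 1.18), *Id2* 0.997-fold (0.896 to 1.11), *Atoh8* 1.12-fold (0.827 to 1.48) and *Bmp4* 0.983-fold (0.493 to 1.98). *Nog* was 1.74-fold lower on 15 against 32 reads (0.913 to 3.45). The hepatocyte markers summed to 7.20 FPKM in labelled KO and 32.8 in WT heart and the erythroid markers to 15846 and 22560, and their part in the results was not tested. The counting intervals of all 10 members on the shortest transcript included no difference in heart, whereas those on the longest did not for *Id3* (0.852 to 0.972 of WT) and *Smad6* (0.830 to 0.986 of WT). Among the other pathway genes, the activin receptor *Acvr2b* was lower (2.67 against 6.91 FPKM), as 1 of 10 receptors.

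In liver 0 of 10 members passed, against 1.39% of 13279 genes higher and 2.30% lower. Their median log2 ratio of FPKM + 1 was -0.13, against -0.08 over all genes. *Smad7* was 2.48-fold lower in FPKM (0.708 to 10.7 on the shortest and 1.93 to 3.24 on the longest transcript), and *Id3* was 1.36-fold lower (0.945 to 1.94 and 1.24 to 1.50). *Nog* was 3.93-fold lower on 2 against 8 reads (0.784 to 38.0). *Id1* and *Id2* were 1.05-fold (0.943 to 1.18) and 1.06-fold (0.961 to 1.17) lower. In the labelled KO liver the cardiomyocyte markers summed to 6.41 against 60.3 FPKM, the skeletal muscle markers to 111 against 269, the fibroblast markers to 231 against 462 and the hepatocyte markers to 10796 against 17823, and their part in the results was not tested. Of the other pathway genes, 1 of 8 further targets was higher and 1 of 10 further antagonists lower, and no ligand, receptor or transducer passed the rule. The target was *Hamp*, the gene of hepcidin, at 5.95 against 2.37 FPKM and listed at 0 in the other 8 libraries, and the antagonist was *Nbl1*, at 0.862 against 4.001 FPKM.

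Heart and liver were also set against each other within each genotype. In WT, *Id3*, *Smad6*, *Atoh8* and *Bmp4* passed the rule with heart higher (4 of 10), against 20.6% of 14572 genes higher and 21.1% lower in heart. *Bmp4* was 9.30-fold higher (2.89 to 50.7), *Atoh8* 7.13-fold (4.34 to 12.0), *Smad6* 3.73-fold (1.92 to 7.67) and *Id3* 2.83-fold (2.13 to 3.75). *Id2* was 1.23-fold higher (1.11 to 1.35) and *Id1* 1.58-fold (1.42 to 1.76). With labelled KO on both sides *Smad7* passed as well (5 of 10), against 23.7% of 14567 genes higher and 20.0% lower, and was 3.83-fold higher in heart (1.05 to 16.7). No member was higher in liver in either genotype.

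The RNA levels of ligand genes differed between the tissues, and ligand proteins were not measured. In WT heart *Bmp7* was at 62.7 FPKM and *Bmp10*, a cardiac ligand, at 33.0, against 2.67 and 1.55 in WT liver. *Gdf2*, which encodes BMP9 and is made by the liver, was at 16.7 in WT liver and 0.416 in WT heart. It was the only 1 of 10 ligands higher in liver by the rule, against 21.1% of all genes. In heart 4 of 10 ligands were higher, against 20.6%. Of the receptors, 7 of 10 were higher in WT heart, against 20.6% of all genes, with *Eng* at 143 against 28.7 and *Bmpr1a* at 26.9 against 6.87. The 6 endothelial markers summed to 280 FPKM in WT heart and 76.1 in WT liver, and their part in the tissue differences was not tested.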

How the data were processed

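RNA-seq was analysed in 10 libraries of 26 samples, and the 16 DNA methylation samples were not used here. After adapter trimming with cutadapt, the authors aligned the reads to mm10 by TopHat2 (2.1.0 per the labels) with a GENCODE annotation, filtered the alignments on uniqueness and mapping quality, and deposited FPKM values from Cufflinks 2.2.1. The study's methods give other versions than the labels for all tools but Cufflinks. No scaling between libraries beyond FPKM is stated.

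From the 52609 rows, repeated symbols were summed (155 rows repeat a symbol). Depth was recovered from genes with 1 GENCODE M21 transcript of at least 1500 bases: 96.4% to 98.1% of their values under 10 reads were whole within 0.1 read, against 10.2% to 15.9% over other depths. Ratios used FPKM + 1, which understates differences of low genes. Intervals are exact Clopper-Pearson limits on reads and cover counting error only, since the reads carry no molecular identifiers. With FPKM below 1 in both libraries a gene cannot pass the 2-fold rule: all 10 members could pass in the MEFs, 9 in 2i-MEFs, heart and WT heart against liver, and 7 in liver and labelled KO heart against liver. The calls and the recovered depth were tested on simulated data.

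The members and gene lists were chosen with earlier results of these data known. All 10 members are named. From each list, the at most 3 genes with the largest log2 ratio past the rule in a comparison could be named, except listed genes that are not reported here, together with the 3 nearest profiles of 4 members, *Dnmt3a*, and marker genes. *Tgfbi* and *Tcf12* were added after their values were seen. As alternatives, the pseudocount was set to 0.1, the ratios were centred on the median of genes that reached 1 FPKM on both sides, members were filtered at 1 FPKM, and repeated symbols were given by the row with the highest mean. Python 3.11.15, numpy 2.4.6, pandas 2.3.3, scipy 1.17.1 and matplotlib 3.10.9 were used.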

Additional observations from a re-analysis of the deposited data

Results flagged for a closer look

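For 3 *Id* genes the ratio of GSK126 to DMSO had opposite signs in the genotypes, with counting intervals that exclude 0 on either side. On the log2 scale of FPKM + 1, *Id1* was at 0.1071 in WT and -0.4362 in MEFs labelled *Dnmt3a* KO, *Id2* at 0.1441 and -0.7346, and *Id4* at 0.1936 and -0.2701. Among genes that reached 1 FPKM in either library, the WT ratios lay at percentiles 65.4, 69.8 and 75.1. Those in labelled KO lay at percentiles 16.4, 6.71 and 27.1. The share of all genes with such opposite signs was not counted, so the flag is not particular to *Id* genes. For *Id1* and *Id2* the ratio of labelled KO to WT likewise had opposite signs in the treatments. It was 0.3886 with DMSO and -0.1547 with GSK126 for *Id1*, and 0.6111 and -0.2676 for *Id2*. These are the same 4 libraries read in another order and not a further observation. Each condition has 1 library, so none of these differences was tested.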

How the results depend on the processing

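No paired analysis was run. Heart and liver share a sample number within WT and within labelled KO, but each such pair is the only pair of its genotype. Ratios centred on the median of genes that reached 1 FPKM on both sides left 1 member higher in MEFs with DMSO, *Smad7*, with *Smad6* at a log2 ratio of 0.98. With a pseudocount of 0.1 FPKM, 2 members were lower in liver, *Smad7* (-1.21) and *Nog* (-1.001), and 1 was higher with GSK126 in WT MEFs, *Grem1* (1.002). The same pseudocount also brought *Nog* past the rule in 2i-MEFs (1.59), and *Id4* and *Nog* in heart against liver (1.76 to 2.30), all on few reads or low FPKM. No other call differed. The filter at 1 FPKM and the choice of row for repeated symbols could not change a call. No member has a repeated row, and a member below 1 FPKM on both sides cannot pass the rule. A change of pseudocount cannot change the sign of a ratio, so the signs are no check. Which calls would hold in a second sample of any condition cannot be said, and *Grem1* and *Nog* in the tissues rest on 1 to 32 reads, where depth limits any comparison.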

Other observations

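E proteins are the partners that ID proteins hold back. *Tcf3* was at 45.8 to 66.2 FPKM, *Tcf4* at 46.2 to 56.3 and *Tcf12* at 38.0 to 72.3 in the 6 fibroblast libraries. In liver *Tcf3* was at 118 in WT and 86.4 in labelled KO, and *Tcf4* at 8.74 and 6.96, whereas the hearts were at 46.1 and 47.1 for *Tcf3* and 25.9 and 25.0 for *Tcf4*. The transducer *Smad4* was at 64.3 to 84.0 FPKM in fibroblasts, 59.0 and 51.0 in heart, and 24.5 and 13.9 in WT and labelled KO liver.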
